A study of Mus musculus with 12 samples.

Results

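The genes described here are those of the interleukin 1 (IL-1) family together with Csf2 and related cytokines in mouse uterus and oviduct. The list named 10 genes, which were the ligands Il1a, Il1b, Il18, Il33, Il6, Tnf and Csf2, the receptors Il1r1 and Il1r2, and the receptor antagonist Il1rn. Where a gene had several probe sets the brightest on average was taken, and 9 of the 10 could be followed among the 19938 genes of the table, while Il1r1 was not analysed here. Flushed uterine horns and flushed oviducts came from mice in the preimplantation days of pregnancy. Estradiol (E2, the main ovarian estrogen) at 10 µg/kg, or 100 µl of sesame oil without it (0 µg/kg), had been given as daily subcutaneous injections on days 0.5 to 2.5 after mating, and tissue was frozen on day 3.5. This gave 4 groups (oil uterus, E2 uterus, oil oviduct, E2 oviduct) of 3 biological replicates, with total RNA of each on an Affymetrix array of its own. The labels name neither strain, age nor genotype, nor do they say whether a uterus and an oviduct with equal number came from the same mouse.

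IL-1α and IL-1β are inflammatory ligands of a shared receptor, encoded by Il1r1, which pairs with the accessory chain Il1rap and signals through the adaptor Myd88 and the Irak kinases to the transcription factor NF-kB. IL-1α is active as a full-length protein and can act as an alarm signal of epithelium, whereas IL-1β and IL-18 are made as inactive precursors that caspase-1 cuts within inflammasomes. Il1r2 encodes a decoy receptor and Il1rn a secreted antagonist, and IL-33 is a nuclear alarm protein of stromal, endothelial and epithelial cells that acts on lymphoid and mast cells. Csf2 encodes the growth factor GM-CSF, which uterine epithelium is known to secrete in early pregnancy, and IL-6 and TNF are inflammatory cytokines with receptors outside the IL-1 family.

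Promoter sequences are shown for some of the genes called in E2 uterus. They are Il1a and the IL-36 ligand genes Il1f8 and Il1f9, which were higher with E2, and Il33 and Il6, which were lower. Il1rn and the IL-36 ligand gene Il1f6, also called higher, are not shown. The call of Il6 rests on dim values and was lost in 1 of 22 alternatives, as given with its values. The sequences are the 250 bases before the start site from RefSeq (GRCm38.p6), written 5′ to 3′ on the gene's strand. All 10 listed genes had an entry there, and Il1f6 had none. Il33 has a pair of annotated start sites, and which of them was in use was not measured. Capitals mark matches, on either strand, to AP-1 (TGANTCA), STAT (TTCNNNGAA), C/EBP (TTNNGCAA), NF-kB and the TATA box (TATAAA).
Il1a, chr2:129309973-129310222, minus strand: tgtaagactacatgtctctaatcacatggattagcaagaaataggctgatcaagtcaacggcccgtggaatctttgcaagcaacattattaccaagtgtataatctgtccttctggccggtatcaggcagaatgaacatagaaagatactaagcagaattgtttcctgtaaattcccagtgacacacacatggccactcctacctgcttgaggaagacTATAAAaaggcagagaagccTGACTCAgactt
Il1f8, chr2:24152922-24153171, plus strand: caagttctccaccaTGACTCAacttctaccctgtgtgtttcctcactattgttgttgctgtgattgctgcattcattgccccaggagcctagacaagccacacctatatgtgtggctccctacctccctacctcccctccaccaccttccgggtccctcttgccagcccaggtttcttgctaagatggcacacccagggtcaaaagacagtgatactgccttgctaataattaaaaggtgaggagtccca
Il1f9, chr2:24186226-24186475, plus strand: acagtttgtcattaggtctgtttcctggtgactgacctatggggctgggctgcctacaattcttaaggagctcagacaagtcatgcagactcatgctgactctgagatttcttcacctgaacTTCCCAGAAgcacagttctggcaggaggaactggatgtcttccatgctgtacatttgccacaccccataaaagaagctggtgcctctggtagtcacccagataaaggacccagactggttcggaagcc
Il33 upstream start, chr19:29924863-29925112, plus strand: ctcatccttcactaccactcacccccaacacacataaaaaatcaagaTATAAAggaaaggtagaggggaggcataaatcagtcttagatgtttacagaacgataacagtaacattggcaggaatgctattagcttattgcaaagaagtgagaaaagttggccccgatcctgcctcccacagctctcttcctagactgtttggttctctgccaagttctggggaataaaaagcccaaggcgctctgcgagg
Il33 downstream start, chr19:29945540-29945789, plus strand: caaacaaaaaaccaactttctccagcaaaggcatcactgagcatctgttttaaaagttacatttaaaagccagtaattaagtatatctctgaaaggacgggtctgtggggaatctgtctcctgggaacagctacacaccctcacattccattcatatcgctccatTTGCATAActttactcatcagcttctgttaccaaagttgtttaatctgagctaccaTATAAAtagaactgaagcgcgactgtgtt
Il6, chr5:30012864-30013113, plus strand: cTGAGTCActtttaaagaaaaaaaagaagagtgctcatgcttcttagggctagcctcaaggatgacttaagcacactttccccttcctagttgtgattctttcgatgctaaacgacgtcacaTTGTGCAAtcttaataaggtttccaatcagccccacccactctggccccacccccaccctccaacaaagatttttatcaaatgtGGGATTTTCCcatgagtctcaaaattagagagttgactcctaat
The Il1a promoter held a TATA box with its start at base -32 from the start site and an AP-1 match at -12. AP-1 matches also lay at -236 of Il1f8 and -249 of Il6, and 6.75% of the 32851 mouse promoters of this length held such a match. A STAT match (7.02% of promoters) lay at -128 of Il1f9. Il6 had a C/EBP match (9.56%) at -128 and an NF-kB match (3.9%) at -44. The downstream Il33 start had a C/EBP match at -85 and a TATA box (12.4%) at -29, and the upstream start a TATA box at -203. The full estrogen response element (GGTCA and TGACC with any 3 bases between, present in 0.0639% of promoters) was not found in these windows, and its half-site GGTCA, which is a piece of the full element and occurs in 35.2% of promoters, lay in those of Il1f8 (-53) and Il1f9 (-218). A match is a description of letters and not a bound site.

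Array medians were alike, at log2 6.88 to 6.93. Oil replicate 3 stood apart in both tissues, with 177 uterine and 302 oviductal genes displaced by over 1 log2 unit relative to the remaining 2 arrays of its group, where the other 10 arrays had 8 to 62 such genes. Its oviduct array was the highest for summed corpus luteum markers (5409, from 553 on the lowest oil oviduct array). Among the cytokines, Il18 lay lower on it in uterus (-0.70) and oviduct (-0.61), Il1b higher in uterus (0.47), Il33 higher in uterus (0.41), and Il6 higher in uterus (0.45) and lower in oviduct (-0.47). The probe sets of 9 Y-linked genes, absent from females, read 1.78 to 7.50 and had an upper quartile of 4.38. Their top value came from Sry alone, and the next gene reached 5.36. All 12 values of Il6 lay below 4.38, and so did 9 of 12 of Il1a, all but those of E2 uterus. Apart from the highest Il1a array, every value of the 9 genes lay below 7.50, so the sizes of changes are uncertain and a level need not reflect transcript.

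The comparison of E2 with oil in the uterus asks how excess estrogen alters the tissue that is to receive the embryo. Il1a was the gene of the list with the largest change, at a fitted 11.4-fold rise, and Il33 fell to 0.458 of its oil level. Il6 also fell and Il1rn rose by a small amount, while Il1b, Tnf, Csf2, Il1r2 and Il18 did not pass the test. By limma at a Benjamini-Hochberg adjusted p of 0.05 over the whole table, 2 of 9 genes were higher and 2 lower, or 4 in all (also 4 without both oil replicate 3 arrays), where 26.7% of all 19938 genes were called (12.4% higher and 14.3% lower). Arrays of the E2 and oil groups did not overlap for 5 of the 9, against 40.5% of all genes. The median change over the 9 was 0.16 log2 units, beside -0.001 over all genes.

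Il1a (probe set 10487588, chromosome 2), the alarm ligand, had log2 intensities of 3.83, 3.96 and 4.10 in oil uterus and of 7.32, 6.81 and 8.31 in E2 uterus. The lowest E2 array thus lay more than 2 log2 units above the highest oil array. The oil arrays were close together (SD 0.135, n = 3), and those with E2 were spread widely (SD 0.759, n = 3). The increase was 3.52 log2 units (SE 0.31, adjusted p = 1.06e-05), with a 95% interval of 7.15 to 18.3 for the fold change. It was 3.58 without both oil replicate 3 arrays. An offset of 16 added to the intensities before log2, which damps changes of dim probe sets, left it at 2.63.

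Il1b (probe set 10487597), the inflammasome-dependent ligand whose gene lies beside Il1a on chromosome 2, showed 5.45, 5.34 and 5.86 in oil uterus and 5.72, 5.42 and 5.30 with E2. The groups overlapped throughout. The difference of -0.07 (SE 0.18) had a 95% interval of -0.46 to 0.33 and an adjusted p of 0.846 by limma, so that a change of the size seen for Il1a lay far outside it.

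Il33 (probe set 10462442, chromosome 19) read 6.83, 7.01 and 7.33 in oil uterus and 5.86, 5.80 and 6.12 in E2 uterus. All E2 values were below all oil values. The fall was -1.13 log2 units (SE 0.12, adjusted p = 4.08e-05), with a 95% interval of -1.39 to -0.86, and it was -0.99 without both oil replicate 3 arrays. Of 10 endothelial markers, 8 fell and 2 rose beside it (summed intensity 6804 to 7698 on oil and 4691 to 5061 on E2 uterine arrays). Stromal markers fell for 5 of 10 with none higher (21264 to 21844 and 19316 to 19742). All 11 measured epithelial markers went the other way and rose (4295 to 4981 and 9541 to 10786). Over all genes 14.3% fell and 12.4% rose. The part of these cell types in the fall of Il33 was not tested. In RNA of whole tissue, fewer cells of a type and less RNA per cell cannot be told apart.

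Il6 (probe set 10520452, chromosome 5) was at 3.22, 3.38 and 3.75 in oil uterus and at 2.59, 2.72 and 2.43 in E2 uterus. These arrays did not overlap, but every value is in the range of Y-linked probe sets. The decrease was -0.87 (SE 0.22, adjusted p = 0.0125 by limma). Without oil uterus replicate 3, the highest of its group, it was -0.72 with an adjusted p of 0.0519, which ends the call. It was the 1 of 22 alternatives to do so, and over these the decrease ran from -0.99 to -0.30. The filters by level did not keep Il6, so they could give no call. Without both oil replicate 3 arrays the decrease was also -0.72 and stayed called (adjusted p = 0.0325 by limma).

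Il1rn (probe set 10469816, chromosome 2), the antagonist of both IL-1 ligands, was at 5.88, 6.03 and 5.90 in oil uterus and 6.23, 6.26 and 6.25 in E2 uterus. The E2 arrays were nearly equal and all above the oil arrays. The rise was 0.31 (SE 0.10, adjusted p = 0.0455), close to the threshold. Adjusted p-values over the alternatives tried ran from 0.00174 to 0.131, and the call ended in 11 of 23 of them. Among these were the fits without oil uterus replicate 1 (0.28, adjusted p = 0.131) or 3 (0.29, 0.111), without E2 uterus replicate 1 (0.32, 0.0922), 2 (0.30, 0.112) or 3 (0.31, 0.0954), and without oil oviduct replicate 1 (0.0524) or E2 oviduct replicates 1 (0.0584) or 3 (0.0567).

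Il18 (probe set 10585194, chromosome 9), a caspase-1 substrate, gave 6.37, 6.21 and 5.59 in oil uterus and 6.41, 6.71 and 6.81 in E2 uterus. The groups did not overlap, although the lowest E2 array lay only just above the highest oil array. The difference of 0.59 (SE 0.21) missed the threshold, with an adjusted p of 0.0592 by limma. It passed without oil uterus replicate 1 (0.74, adjusted p = 0.0329) and without oil oviduct replicate 3 (0.59, adjusted p = 0.0273), and it was 0.35 (adjusted p = 0.0513) without both oil replicate 3 arrays.

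Tnf (probe set 10450501, chromosome 17) lay at 5.34, 5.34 and 5.37 in oil uterus and at 5.81, 5.42 and 5.35 in E2 uterus. A single E2 array stood above the rest, and the difference was 0.18 (SE 0.12, adjusted p = 0.327). Csf2 (probe set 10385912, chromosome 11) read 4.47, 4.43 and 4.40 against 4.60, 4.40 and 4.27. Its groups overlapped, and its difference of -0.01 (SE 0.095) had a 95% interval of -0.22 to 0.20. The decoy receptor Il1r2 (probe set 10345752, chromosome 1) was at 5.32, 5.28 and 5.45 with oil and 5.53, 5.59 and 5.42 with E2, a difference of 0.16 (SE 0.13, adjusted p = 0.415 by limma).

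**Figure D1:**
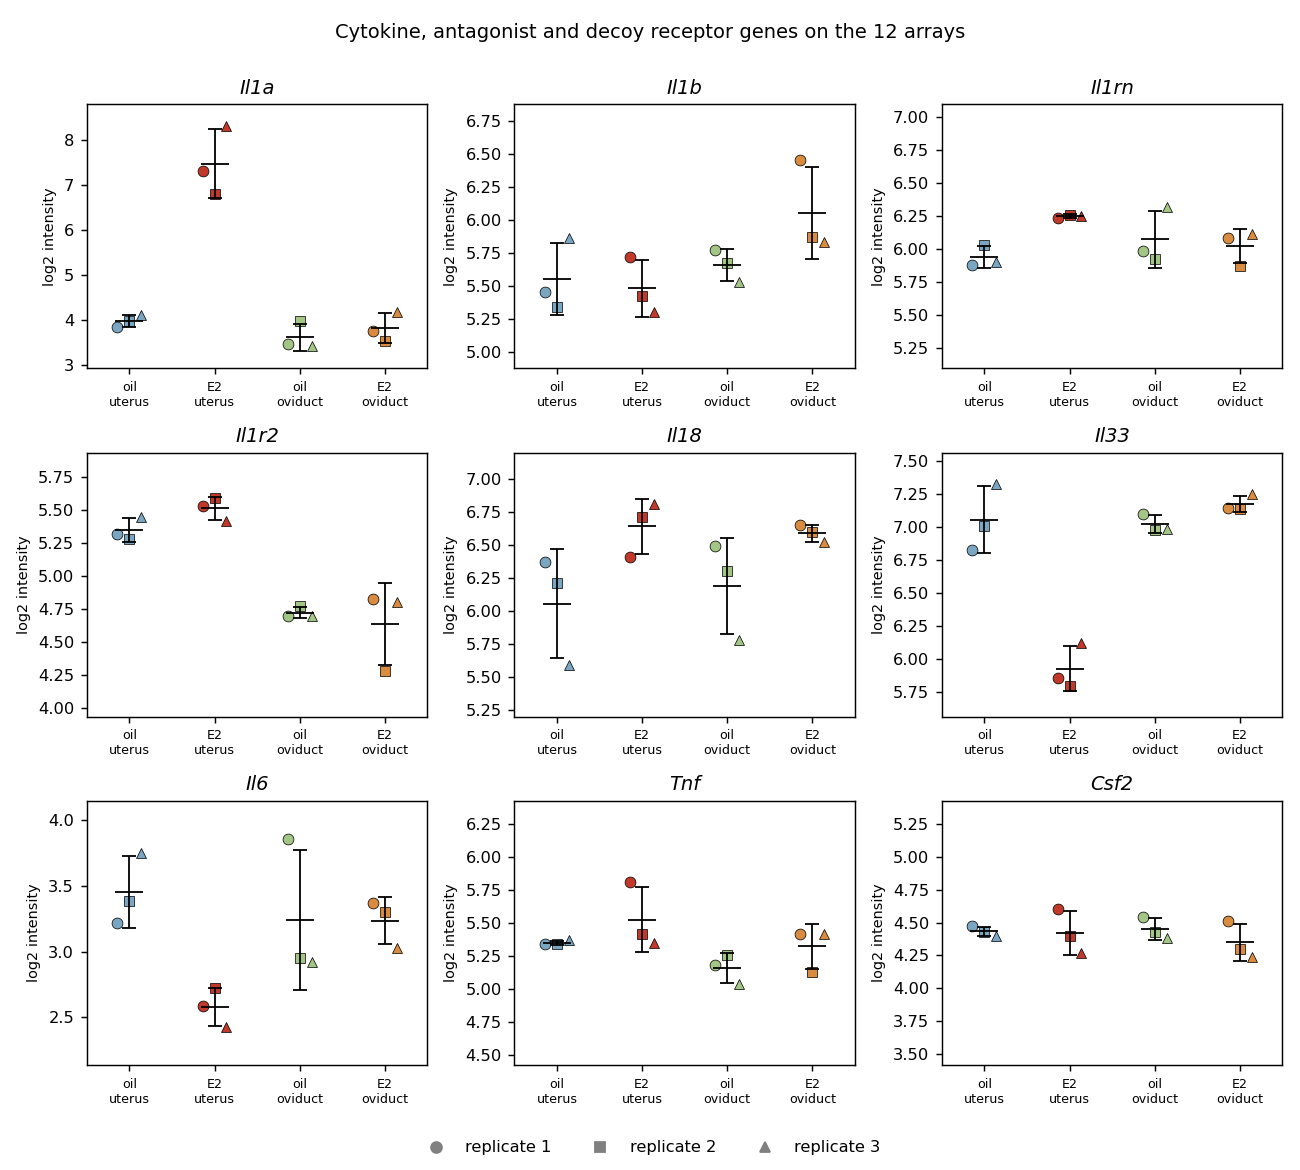
Log2 intensity of each of the 9 cytokine, antagonist and decoy receptor genes on the 12 arrays, by tissue and treatment. Symbols are replicates 1 to 3, long bars the group means and whiskers 1 SD (n = 3), and the vertical scale differs between panels; the E2 uterus arrays of Il1a lie from 6.81 to 8.31 and those of Il33 from 5.80 to 6.12, apart from the other 9 arrays.

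The same comparison in the oviduct, the tissue that carries the embryo to the uterus, gave no call among the 9 genes by limma, where 0.291% of all genes were called. At an unadjusted p under 0.05, a limit at which all genes were not counted, there was 1 gene, Il1b. Its values were 5.77, 5.67 and 5.53 in oil oviduct and 6.45, 5.87 and 5.83 with E2. All E2 values exceeded the oil values, with a difference of 0.40 (SE 0.18, adjusted p = 0.473). Without both oil replicate 3 arrays it was 0.34. Macrophage markers had a median change of 0.48 on the same arrays, beside -0.006 over all genes, and none of the 10 was called by limma. Their summed intensities were 1742 to 2693 on oil and 2987 to 3599 on E2 oviduct arrays. In E2 uterus the same markers had a median change of 0.72, with 8 of 10 called higher (12.4% of all genes were), and Il1b there was at -0.07. The part of macrophages in the Il1b values was not tested.

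Il1a in the oviduct read 3.45, 3.96 and 3.41 with oil and 3.74, 3.53 and 4.18 with E2, a difference of 0.21 (SE 0.31) with a 95% interval of -0.47 to 0.89. Those groups overlapped, and all 6 values lay at or near the oil uterus level. Il33 was at 7.10, 6.98 and 6.99 with oil and 7.15, 7.14 and 7.25 with E2. The groups did not overlap, but the difference was small (0.16, SE 0.12, adjusted p = 0.705). Il18 gave 6.49, 6.30 and 5.78 against 6.65, 6.60 and 6.52, which did not overlap either, and its difference of 0.40 (SE 0.21, adjusted p = 0.554 by limma) was 0.19 without both oil replicate 3 arrays. Non-overlap held for these 3 genes of 9, against 17.4% of all genes.

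Il6 in oil oviduct had a single high array (3.85, 2.95 and 2.92), and E2 oviduct read 3.37, 3.30 and 3.03. Its difference was -0.01 (SE 0.22). Tnf (5.18, 5.26 and 5.04 with oil, 5.42, 5.13 and 5.42 with E2) differed by 0.17 (SE 0.12) and Csf2 (4.54, 4.43 and 4.38; 4.51, 4.30 and 4.24) by -0.10 (SE 0.095). Il1r2 read 4.70, 4.77 and 4.70 with oil and 4.83, 4.28 and 4.80 with E2. For Il1rn the values were 5.98, 5.92 and 6.32 with oil and 6.08, 5.87 and 6.11 with E2. The groups of these 5 genes overlapped.

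**Figure D2:**
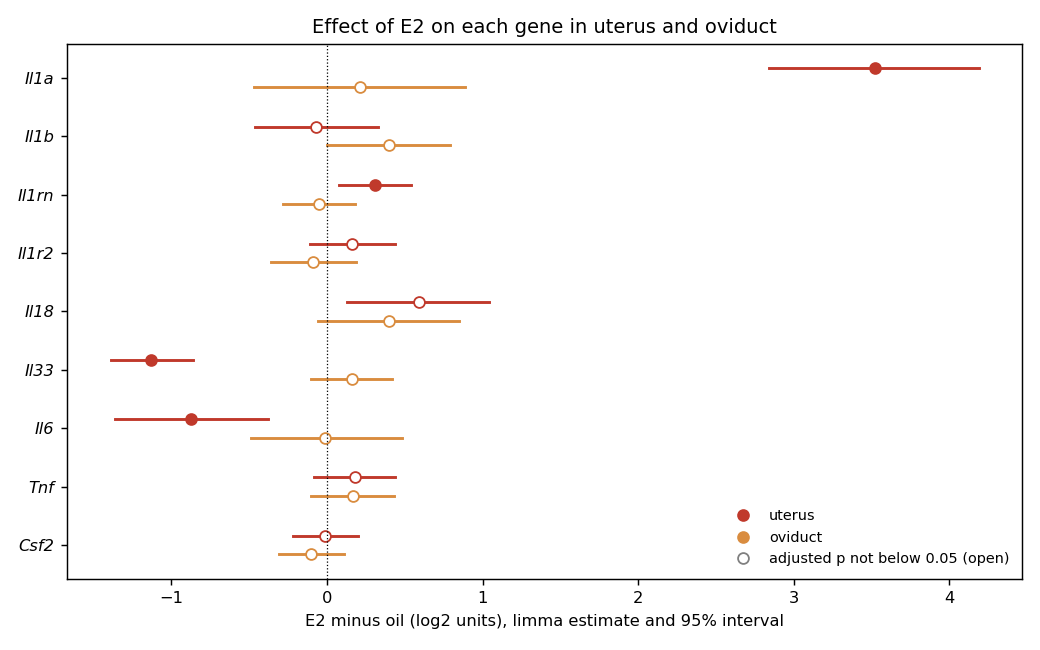
Effect of E2 (E2 minus oil, log2 units) on each gene in uterus and oviduct, as the limma estimate with its 95% interval. Filled points have an adjusted p below 0.05; the uterine estimate is 3.52 for Il1a and -1.13 for Il33, and no oviductal point is filled.

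Whether the E2 effect differed between tissues was tested directly, as the oviductal minus the uterine effect. Il1a (-3.31, SE 0.44, adjusted p = 0.000579) and Il33 (1.28, SE 0.17, adjusted p = 0.000571) passed, which is 1 lower and 1 higher effect in oviduct among 9, where 11.5% of all genes passed (5.77% higher and 5.71% lower). The effect on Il1a was 3.52 in uterus and 0.21 in oviduct, and that on Il33 was -1.13 and 0.16. Both calls held under each alternative that was run, with ranges of -3.64 to -2.54 and of 1.10 to 1.40. The differences for Il6 (0.86, SE 0.32, adjusted p = 0.110) and Il1rn (-0.36, SE 0.15, adjusted p = 0.156) did not pass by limma. That of Il6 became 1.17 (adjusted p = 0.00631) without oil oviduct replicate 1, the array at 3.85.

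Oviduct against uterus in oil mice shows the tissues without added E2. Il1r2 was the only gene of the 9 that differed, and it was lower in oviduct by -0.63 (SE 0.13, adjusted p = 0.00173), where 38.7% of all genes were called. Its oviductal oil values (4.70 to 4.77) lay wholly below the uterine ones (5.28 to 5.45). Arrays of the tissues failed to overlap for Il1r2 and Tnf (-0.19, adjusted p = 0.259 by limma), or 2 of 9, against 46.6% of all genes. Il1a (-0.36, SE 0.31) and Il33 (-0.03, SE 0.12) had overlapping arrays. Il6 differed by -0.21 (adjusted p = 0.524), and by -0.51 (adjusted p = 0.0249) without oil oviduct replicate 1.

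In E2 mice 5 of the 9 genes differed between the tissues, 3 higher and 2 lower in oviduct, where 34.1% of all genes did (15.2% higher and 18.9% lower). Arrays did not overlap for 6 of 9, against 49.8% of all genes. Il1a (-3.67, SE 0.31) and Il1r2 (-0.88, SE 0.13, adjusted p = 0.000213) were lower in oviduct. Il33 (1.25, SE 0.12), Il6 (0.66, SE 0.22, adjusted p = 0.04) and Il1b (0.57, SE 0.18, adjusted p = 0.028) were higher. The Il1b call ended without E2 uterus replicate 2 (0.54) or 3 (0.48) or E2 oviduct replicate 1 (0.37). The Il6 call ended in 8 of 22 alternatives, among them the fits without oil uterus replicate 2 (adjusted p = 0.051), any of E2 uterus replicates 1 (0.0848), 2 (0.0591) and 3 (0.118), or E2 oviduct replicates 1 (0.119) and 2 (0.105). This comparison and those above share arrays.

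Ordered by group mean, Il1a stood at 7.48 in E2 uterus, 3.96 in oil uterus, 3.81 in E2 oviduct and 3.60 in oil oviduct, and each neighbouring pair below the top overlapped. Il33 stood at 7.18 in E2 oviduct, 7.05 in oil uterus, 7.02 in oil oviduct and 5.93 in E2 uterus, and only the last step was free of overlap. Il6 had the same lowest group, at 2.58, below 3.23 to 3.45 in the others. For Csf2 the group means spanned 4.35 to 4.45 and every neighbouring pair overlapped.

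The gene lists used from here on were chosen with earlier results of these data known, so their shares are descriptive only. A list of the other IL-1 family ligands with the IL-18 binding protein Il18bp had 6 measured genes, of which 3 (50.0%) rose in E2 uterus and none fell, where 12.4% of all genes rose and 14.3% fell. The risers were the IL-36 ligand genes Il1f8 (IL-36β), Il1f6 (IL-36α) and Il1f9 (IL-36γ), epithelial cytokines that use the receptor chain Il1rl2 together with Il1rap. Il1f8 read 5.67, 5.83 and 5.24 in oil uterus and 8.94, 8.47 and 8.89 in E2 uterus, an increase of 3.19 (SE 0.18, adjusted p = 4.03e-07). Il1f6 read 4.20, 3.78 and 4.37 with oil and 6.93, 5.98 and 6.35 with E2, an increase of 2.30 (SE 0.23). Il1f9 rose from 4.35, 4.33 and 4.52 to 6.67, 5.79 and 6.26, by 1.84 (SE 0.17, adjusted p = 1.75e-05 by limma). E2 and oil arrays were widely separated for all 3.

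In the oviduct Il1f8 was already at 7.45, 7.64 and 7.28 with oil, above oil uterus by 1.88 (SE 0.18), and it read 7.09, 7.42 and 7.61 with E2. Il1f6 (3.88, 4.36 and 4.14 with oil; 4.03, 4.18 and 4.50 with E2) and Il1f9 (4.32, 4.49 and 4.29; 4.50, 4.19 and 4.30) stayed near the level of oil uterus. The E2 effect was smaller in oviduct than in uterus for Il1f8 (-3.27, SE 0.26), Il1f6 (-2.19, SE 0.33) and Il1f9 (-1.88, SE 0.25). The antagonist gene of the IL-36 receptor, Il1f5, changed by 0.09 (SE 0.11) in uterus and Il1f10 (IL-38) by -0.04 (SE 0.11), and neither passed. All 11 measured epithelial markers rose in E2 uterus (median 0.82), where 12.4% of all genes did. The summed intensity of these markers was 4295 to 4981 on the oil and 9541 to 10786 on the E2 arrays. Oil oviduct arrays had epithelial sums of 10696 to 11857, and the part of epithelium in the IL-36 and Il1a values was not tested.

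In RefSeq gene order, Il1f8, Il1f9, Il1f6, Il1f5, Il1f10 and Il1rn follow each other on chromosome 2 between Tbpl2 and Psd4. The first 3 and Il1rn rose in E2 uterus. The flanking Psd4 (0.52, SE 0.11) and Pax8 (0.84, SE 0.14) rose too, whereas Tbpl2 was at -0.07 (SE 0.12). Elsewhere on chromosome 2, Il1a lies between Ckap2l (-1.05, SE 0.40, adjusted p = 0.0762) and Il1b, neither of which passed the test, and F830045P16Rik on the far side of Il1b was at 0.33 (SE 0.20). On chromosome 1, Il1r2, Il1r1, Il1rl2, Il1rl1, Il18r1 and Il18rap lie in a row.

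**Figure D3:**
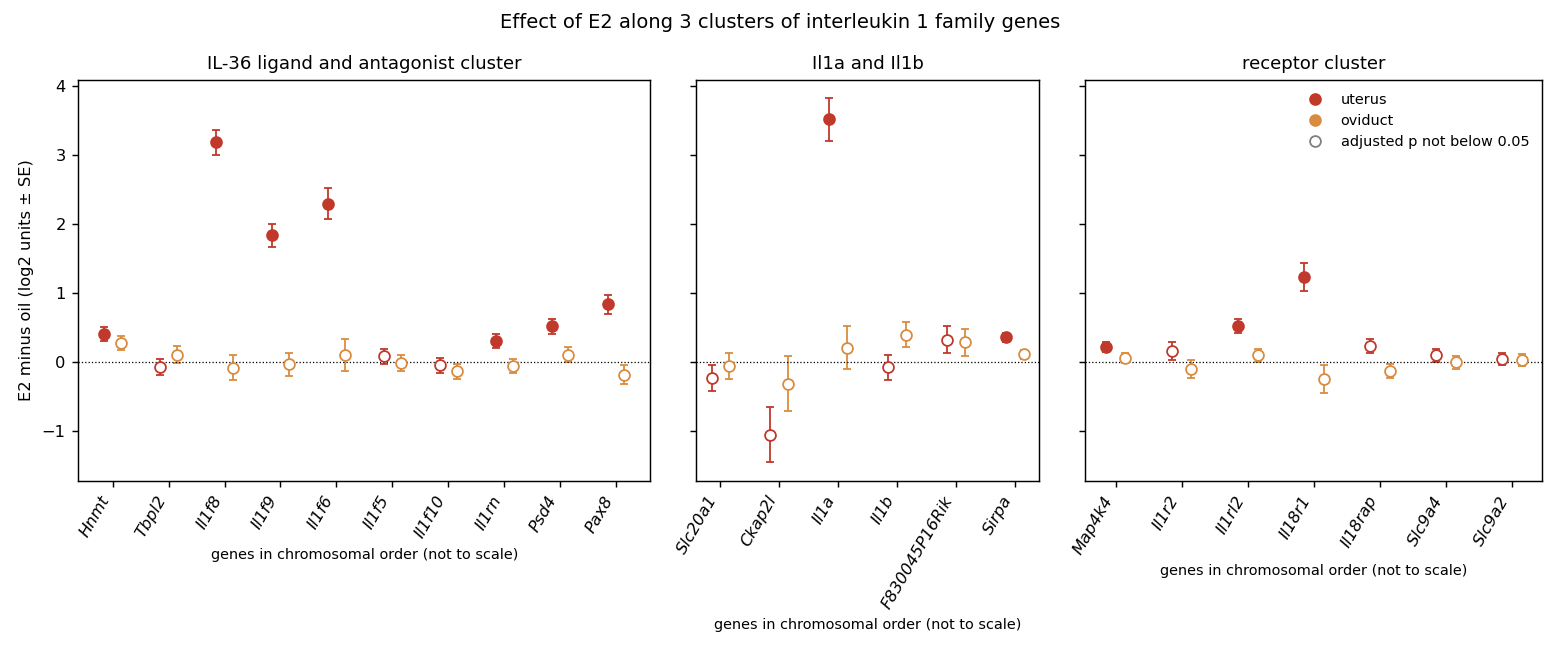
Effect of E2 (E2 minus oil, log2 units, whiskers 1 SE) for measured genes in chromosomal order around 3 groups of IL-1 family genes, in uterus and oviduct; filled points have an adjusted p below 0.05. High uterine points at Il1f8 (3.19), Il1f6 (2.30), Il1f9 (1.84) and Il1a (3.52) stand out from genes near 0 in the same rows, such as Il1f5 at 0.09 and Il1b at -0.07; Il1r1 and Il1rl1, which belong in the receptor row, were not analysed here and have no point.

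Of 7 other receptors of the family, 2 rose in E2 uterus and none fell, a share called of 28.6% that is near the 26.7% of all genes. The IL-18 receptor chain Il18r1 went from 6.17, 5.94 and 5.67 to 6.91, 7.03 and 7.57, a rise of 1.24 (SE 0.20, adjusted p = 0.000775). Il1rl2, the IL-36 receptor, went from 7.84, 8.0 and 7.84 to 8.34, 8.43 and 8.49, a rise of 0.53 (SE 0.10). Neither set of arrays overlapped with oil. In oviduct Il18r1 had 6.33, 6.05 and 6.79 with oil and 6.14, 6.23 and 6.06 with E2, and its effect differed from that in uterus by -1.49 (SE 0.29, adjusted p = 0.00606 by limma). Il1rap, the shared accessory chain, was at -0.21 (SE 0.077) in uterus and 0.27 (SE 0.077) in oviduct. Neither effect passed, but their difference of 0.48 (SE 0.11, adjusted p = 0.0151) did. Without oil uterus replicate 3 the uterine value was -0.27 (adjusted p = 0.0314), a call by limma.

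Of 14 inflammasome genes with a probe set, 4 rose and none fell, and the list median was 0.24. The share called, 28.6%, is near the 26.7% of all genes. Naip5 (1.31, SE 0.11) and Naip2 (1.02, SE 0.16) encode sensors of bacterial flagellin and secretion proteins, and Nlrc4 (0.51, SE 0.11) encodes the scaffold they activate. The Naip genes are related copies, so their probe sets may share some signal, which was not tested. Oviduct against uterus in oil mice was 1.45 (SE 0.11) for Naip5 and 0.14 (SE 0.16) for Naip2. Casp1, the protease that matures IL-1β and IL-18, read 7.08, 7.02 and 7.07 with oil and 7.70, 7.74 and 7.91 with E2 (0.72, SE 0.14, adjusted p = 0.00217 by limma). Naip5 in the oviduct read 9.20, 9.34 and 8.98 with oil and 8.64, 8.44 and 8.85 with E2, and its effect there lay -1.84 (SE 0.16) below that in uterus. For Naip2 this difference was -1.12 (SE 0.23). Macrophage markers moved in the same direction, with 8 of 10 called higher in E2 uterus, where 12.4% of all genes were. Their summed intensity was 2518 to 3001 on oil and 4328 to 4692 on E2 arrays, and their part was not tested.

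**Figure D4:**
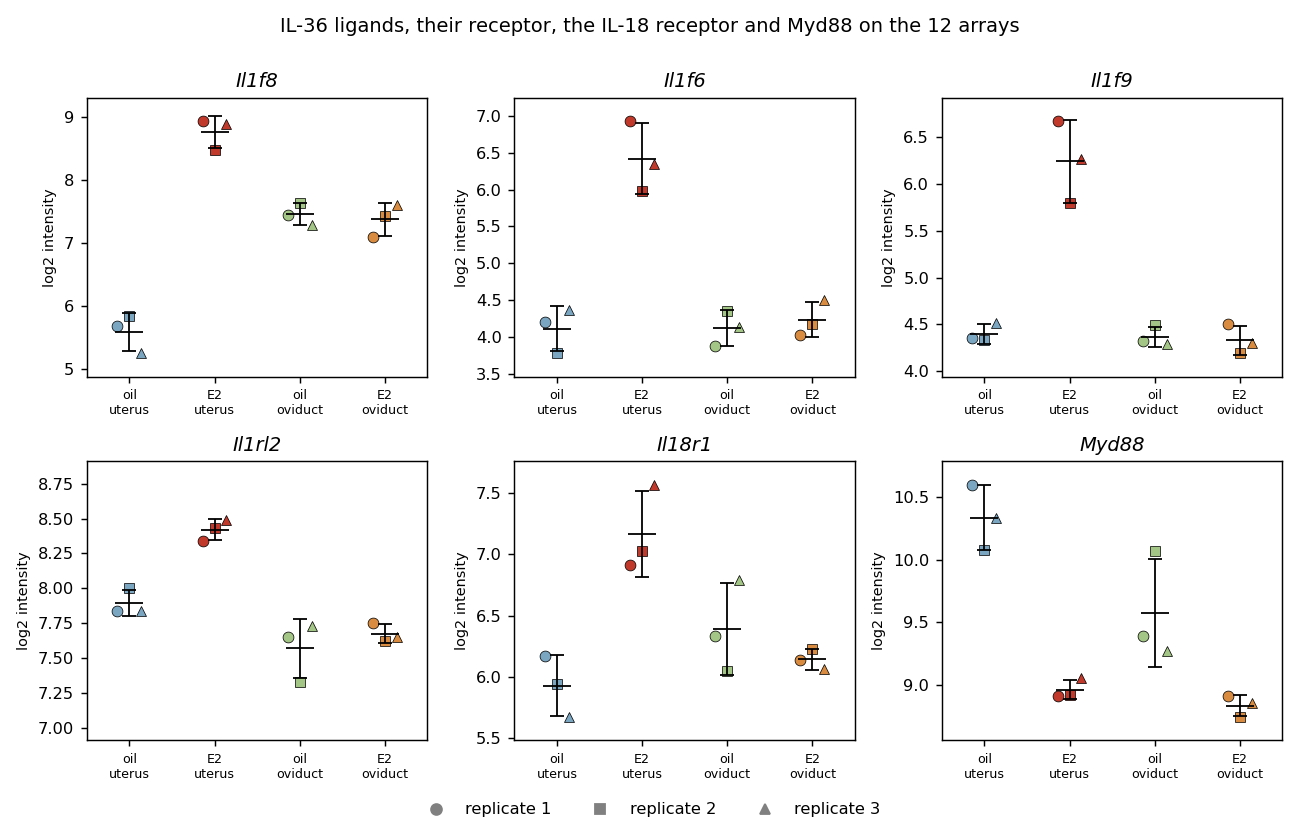
Log2 intensity of the IL-36 ligand genes Il1f8, Il1f6 and Il1f9, the receptors Il1rl2 and Il18r1, and the adaptor Myd88 on the 12 arrays, with group means (long bars) and 1 SD (whiskers, n = 3). The vertical scale differs between panels; E2 uterus arrays are the highest for the ligands and receptors, and Myd88 lies from 10.08 to 10.60 in oil uterus and from 8.91 to 9.05 in E2 uterus.

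Of 22 signalling genes from the IL-1 receptor to NF-kB, 3 rose (13.6%) and 4 fell (18.2%), shares near the 12.4% and 14.3% of all genes, with a median of 0.01. The adaptor Myd88 fell from 10.60, 10.08 and 10.33 to 8.91, 8.92 and 9.05 in uterus, by -1.37 (SE 0.18, adjusted p = 0.000195). In oviduct it read 9.39, 10.07 and 9.27 with oil and 8.91, 8.74 and 8.85 with E2, a difference of -0.74 (SE 0.18, adjusted p = 0.160) whose arrays did not overlap. Irak2, a kinase that Myd88 recruits, rose from 7.08, 7.08 and 6.80 to 8.04, 7.93 and 8.16 (1.06, SE 0.09). Oviduct arrays of Irak2 lay between 7.80 and 7.96, and the E2 effect differed by -1.04 (SE 0.13). The atypical inhibitor Nfkbiz rose by 0.68 (SE 0.15) and Bcl3, of the same protein family, fell by 0.64 (SE 0.14). The difference between tissues for Bcl3 (0.71, adjusted p = 0.0392) was lost on leaving out any single array other than oil uterus replicate 2, with adjusted p-values of 0.0506 to 0.0969.

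Around IL-6, 4 of 11 receptor and signalling genes rose (36.4%, against 12.4% of all genes) and 2 fell (18.2%, against 14.3%) in E2 uterus, with a median change near 0. The ligand-binding receptor Il6ra was higher by 0.67 (SE 0.14) and the related cytokine Clcf1 by 0.50 (SE 0.065), while the kinase Jak1 was lower by -0.42 (SE 0.09). The oncostatin receptor Osmr, at 0.45 (adjusted p = 0.0294), lost its call without oil uterus replicate 1 or 2 or E2 uterus replicate 2 or 3 (0.0509 to 0.114). Around TNF, 3 of 14 rose and 1 fell, or 28.6% called where 26.7% of all genes were. The receptor Tnfrsf1b, found mainly on blood and endothelial cells, rose by 0.91 (SE 0.16), and the widely expressed receptor Tnfrsf1a fell by 0.43 (SE 0.07). The cytokine gene Ltb (0.38) lost its call without oil uterus replicate 2 or E2 uterus replicate 1 or 2 (adjusted p = 0.0509 to 0.0606). That of Birc3 (0.34) was lost without any uterine array but oil uterus replicate 2, and without any array of E2 oviduct (0.0561 to 0.141). The E2 effect on Tnfrsf1a was higher in oviduct by 0.60 (SE 0.099), and that on Clcf1 lower by -0.53 (SE 0.091).

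Csf2 itself did not pass in either tissue. Of 13 genes of the GM-CSF receptor and related growth factors, 5 rose in E2 uterus and none fell, or 38.5% higher against 12.4% of all genes, with a median of 0.20 beside -0.001. The receptor chain genes, named after their values were seen, were not among the 5. Csf2ra was at 0.20 (SE 0.10), Csf2rb at -0.46 (SE 0.19, adjusted p = 0.0921 by limma) and Csf2rb2 at -0.25 (SE 0.17). The neutrophil growth factor receptor Csf3r rose by 0.57 (SE 0.086), the STAT5 target Cish by 0.40 (SE 0.10) and the IL-5 receptor chain Il5ra by 0.51 (SE 0.13). The tissue difference of Il5ra (-0.69, adjusted p = 0.028) was lost without oil uterus replicate 3, E2 uterus replicate 1 or 3, replicate 2 of oil oviduct, or either of replicates 2 and 3 of E2 oviduct (adjusted p = 0.057 to 0.0693). The kinase gene Jak2, also among the 5, was at 0.30 (SE 0.10, adjusted p = 0.0484), and its call was lost on leaving out any single array other than oil uterus replicate 3 and oil oviduct replicates 2 and 3 (0.0533 to 0.155). Csf3, which encodes the ligand of Csf3r, read 5.74, 5.85 and 5.96 with oil and 6.21, 6.16 and 6.26 with E2 in uterus (0.36, SE 0.091, adjusted p = 0.0114). Without oil uterus replicate 1 its adjusted p was 0.0503. In oviduct Csf3 was at 6.49, 6.82 and 6.74 with oil and 6.35, 6.50 and 6.42 with E2. The effect of E2 on Csf3 differed by -0.62 (SE 0.13) between tissues. Of 10 neutrophil markers, 1 rose in E2 uterus (Ly6g, 3.03) and 7 lay below the highest Y-linked value.

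Among 18 genes that IL-1 or TNF commonly induce, 5 rose (27.8%, against 12.4% of all genes) and 3 fell (16.7%, against 14.3%), with a median of 0.07. Lcn2, which sequesters bacterial siderophores, went from 7.24, 7.04 and 7.87 to 12.60, 12.37 and 12.61. Its oviduct values were 10.53, 10.42 and 11.14 with oil and 11.57, 11.60 and 11.83 with E2. They did not overlap, and the difference of 0.97 (SE 0.21, adjusted p = 0.12 by limma) did not pass. The prostaglandin synthase Ptgs2 rose by 1.08 (SE 0.21) and the mRNA-degrading Zc3h12a by 0.76 (SE 0.09). Mmp9, a gelatin-cutting protease, rose by 0.64 (SE 0.17), and its call ended without oil uterus replicate 3 (0.49) or E2 uterus replicate 1 (0.55). The chemokine genes Ccl2 (-0.12, SE 0.16) and Cxcl1 (0.01, SE 0.13), named after their values were seen, did not pass. Of 24 other interleukins and cytokines, 1 passed in uterus (4.17%, against 26.7% of all genes). It was the epithelial cytokine Tslp, at 4.81, 4.89 and 4.73 with oil and 5.25, 5.46 and 5.33 with E2 (0.54, SE 0.13, adjusted p = 0.00839 by limma).

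Across all these lists 30 of 129 genes rose (23.3%, against 12.4% of all genes) and 10 fell (7.75%, against 14.3%) in E2 uterus, with a median of 0.09. Because the lists were chosen with earlier results of these data known, the shares describe them and are no test of them. None of the 129 passed in oviduct by limma, where 23 had an unadjusted p under 0.05. The share of all genes under that unadjusted limit in oviduct was not counted. Without both oil replicate 3 arrays, Lcn2 (1.19), Jak2 (-0.55) and Naip5 (-0.63) passed there, and these 3 also passed with array weights (1.14, -0.49 and -0.52). Lcn2 passed too without oil uterus replicate 3 (0.97, adjusted p = 0.0449) or oil oviduct replicate 3 (1.19, 0.0363). In the test of the difference, 13 of them were lower (10.1%, against 5.71% of all genes) and 3 higher (2.33%, against 5.77%) in oviduct, or 12.4% called beside 11.5% of all genes.

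Genes most like each cytokine were taken by Pearson correlation over the 12 arrays, which fall into 4 groups, so the values describe group patterns. Il1a was nearest to Fer1l4 (r = 0.993), Entpd8 (0.988) and Upk3bl (0.986), and its correlations with Il1f9 (0.966) and Il1f6 (0.957) were above that with Il1f8 (0.693). Fer1l4 was higher by 1.71 in E2 uterus and Upk3bl by 2.01. Il33 was nearest to the transcription factor gene Creb3l1 (0.981), the sulfotransferase gene Chst2 (0.977) and Maged1 (0.971). Its correlation with Il1a was -0.898. Il1r2 was nearest to Ncf4 (0.970), a subunit gene of the phagocyte oxidase, and Il1b to Nxf3 (0.943) and the monocyte chemokine Ccl2 (0.920). Il1rn was nearest to Zfp217 (0.945) and Il6 to Fasn (0.912).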

How the data were processed

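Total RNA of 12 samples (4 groups, 3 arrays each) was measured on Affymetrix arrays. The authors deposited an intensity per probe set, made with RMA per the submitters' processing notes; no version or build is named in the labels. Values proved linear (array maxima 9102 to 9950) and were log2 transformed here, where log2 values had been assumed. Of 35556 probe sets, 21789 had a single symbol and 21698 of these matched the GRCm38.p6 gene table, giving 19938 genes, 999 with several probe sets; the highest mean was kept. Il1r1 had no single-symbol probe set. Group means of all 12 arrays were fitted with limma 3.58.1 in R 4.3.3 (lmFit, eBayes, two-sided, Benjamini-Hochberg, threshold 0.05), tested on simulated data. No filter, detection call or scan date was used. Precision is limited by 3 arrays a group. The genes and lists were chosen with earlier results of these data known. Beyond the 9 genes, the rule named up to 4 called genes of a list in uterus and 2 in oviduct or the difference by size, 3 genes most like a called cytokine, and up to 3 markers a cell type; neighbouring genes were named by position. Alternatives were other samples in the fit, replicate blocks, probe set medians, filters, scalings, an offset of 16, variance models, array weights, and leaving out each array or both of oil replicate 3.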

Additional observations from a re-analysis of the deposited data

Results flagged for a closer look

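For these genes the E2 effect in oviduct differed from that in uterus by limma's test of the difference itself (oviduct minus uterus, log2 units, n = 3 arrays per group). Il1a differed by -3.31 and Il33 by 1.28. Of the IL-36 ligand genes, Il1f8 differed by -3.27, Il1f6 by -2.19 and Il1f9 by -1.88. Among receptors the values were -1.49 for Il18r1 and 0.48 for Il1rap, and 0.60 for Tnfrsf1a. Naip5 differed by -1.84 and Naip2 by -1.12, with Irak2 at -1.04 and Bcl3 at 0.71. Of the remaining list genes, Lcn2 was at -4.17, Zc3h12a at -0.71, Clcf1 at -0.53, Csf3 at -0.62, Il5ra at -0.69 and Jak2, the kinase of the GM-CSF receptor, at -0.76.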

How the results depend on the processing

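Over 24 settings and 141 gene results, 3134 of 3279 values kept their side of the threshold, 75 lost and 70 gained a call. Of results called in the main fit, 0 changed sign. Direction was not followed for uncalled results, and some changed sign, such as Il1b in uterus (-0.19 to 0.09). Uterine changes stayed called for Il1a (2.63 to 3.85) and Il33 (-1.24 to -0.95) in all 24. Leaving out 1 array at a time gave 2 to 5 of the 9 genes called in uterus, 0 to 0 in oviduct, 2 to 3 for the difference, 1 to 2 between tissues in oil mice and 3 to 6 in E2 mice. The same step gave 4226 to 5887 genes over the table in uterus (main count 5332), 14 to 67 in oviduct (58), 1571 to 2521 for the difference (2288), 6760 to 7708 between tissues in oil mice (7725) and 5461 to 7297 in E2 mice (6793). Oviductal genes called were 10 with only the arrays of that tissue, 89 with genes above the median level only, 264 with array weights and 121 without both oil replicate 3 arrays. Array weights gave 8214 genes in uterus, 4531 for the difference and 10554 between tissues in E2 mice. The filter at the median level kept 2 of the 9 genes, which left 2 called in uterus, 0 between tissues in oil mice and 2 in E2 mice, since fewer genes were tested. Il1rn in uterus was also lost under quantile normalization (adjusted p = 0.0768) and the robust variance model (0.0515), and Il18 passed with array weights (0.0143); the cause was not tested.

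Equal replicate numbers were not taken to pair the arrays, since the labels do not say so and correlations of deviations were -0.22 to 0.263 for equal and -0.285 to 0.264 for different numbers. The 6 uterus and oviduct pairs of equal treatment and number lay at 0.005 to 0.263, so a shared mouse was not settled. With a replicate block (number), 4 of the 9 genes were called in uterus (5318 of all genes), 0 in oviduct (39), 2 for the difference, 1 in oil mice and 4 in E2 mice. In that fit Lcn2 passed in oviduct (0.97, adjusted p = 0.031) and Il18 in uterus (0.59, adjusted p = 0.0495), while Il1rn in uterus (0.31, 0.0502) and Il6 between tissues of E2 mice (0.66, 0.0531) did not. A random block of treatment and number (correlation 0.0986) gave 4 in uterus and 0 in oviduct.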
